A study of Mus musculus with 10 samples.

Results

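The genes described here are 10 markers of the liver sinusoidal endothelial cell: Stab1, Stab2, Lyve1, Clec4g, Kdr, Pecam1, Fcgr2b, Oit3, Bmp2 and Gpr182. They were taken by gene symbol from 22180 genes that the array names with a single symbol, and all 10 were found, each with 1 probe set. The arrays were hybridised with whole liver RNA of female BALB/cByJ mice aged 3 months. The groups were Pml knockout with food removed for 6 h (3 arrays, called fasted knockout), Pml wild type with food removed for 6 h (3 arrays, fasted wild type), Pml knockout fed ad libitum (2 arrays, fed knockout) and Pml wild type fed ad libitum (2 arrays, fed wild type). Pml encodes the protein that organises PML nuclear bodies. The labels describe no Cre driver or inserted transgene, and the sources at hand do not give how the allele was made. Removal of food is noted for every sample, so the feeding state was taken from the titles. Nothing says that each array is a separate animal, and the p-values therefore cover only the spread from array to array, which may be technical.

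Sinusoidal endothelial cells line the capillaries of the liver. They lack a basement membrane, are perforated by fenestrae, and clear waste macromolecules and immune complexes from blood through scavenger, lectin and Fc receptors. They also send signals to hepatocytes: BMP2 and BMP6 from these cells set the transcription of hepcidin, the hormone of iron balance, and Wnt ligands maintain the pericentral zone. VEGF receptor signalling keeps their differentiated state.

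All 10 markers passed the filter on dim probe sets, and each lay above the median of the array on all 10 arrays, by at least 1.44 on the log2 scale. Values are log2 intensities, and a difference is a difference of log2 intensities with the standard error (SE) of a linear model fitted in limma to the 13942 genes that passed. P-values were adjusted by the Benjamini-Hochberg method over those genes, with 0.05 as the limit below which a gene is said to be called. Intensities of different probe sets are not compared with each other. In whole liver, fewer cells of a type and less RNA per cell cannot be told apart.

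Pml itself averaged 6.18 ± 0.15 in fasted knockout, against 7.78 ± 0.32 in fasted wild type (SD, n = 3 each). Its fed means were 6.66 ± 0.36 in knockout, against 8.29 ± 0.11 in wild type (SD, n = 2 each). The fasted knockout arrays did not resemble each other in clock genes. The log2 level of Arntl minus that of Dbp, a pair that peaks at opposite times of day, was -5.45, -5.27 and 2.87 in fasted knockout replicates 1, 2 and 3, against 2.46 to 3.22 in fasted wild type. It was -4.16 and -4.00 in fed knockout, against -2.48 and -2.0 in fed wild type. Collection times are not given. Marker differences that rest on fasted knockout are therefore also given without replicates 1 and 2, which leaves 1 array in that group, assumed to vary like the others. With 1 array in a group, few genes of any kind could be called. These values can therefore show whether a size held, and not whether a call did.

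Among the comparisons of single groups, 3 tests passed the threshold. Bmp2 and Pecam1 rose with the fast in wild type liver, and Stab1 was lower in fasted knockout than in fasted wild type. Called or not, all markers apart from Lyve1 stayed within a narrow band. Over the 10 arrays, 9 markers spanned between 1.15-fold (Clec4g) and 1.69-fold (Stab1), whereas Lyve1 spanned 9.18-fold.

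**Figure D1:**
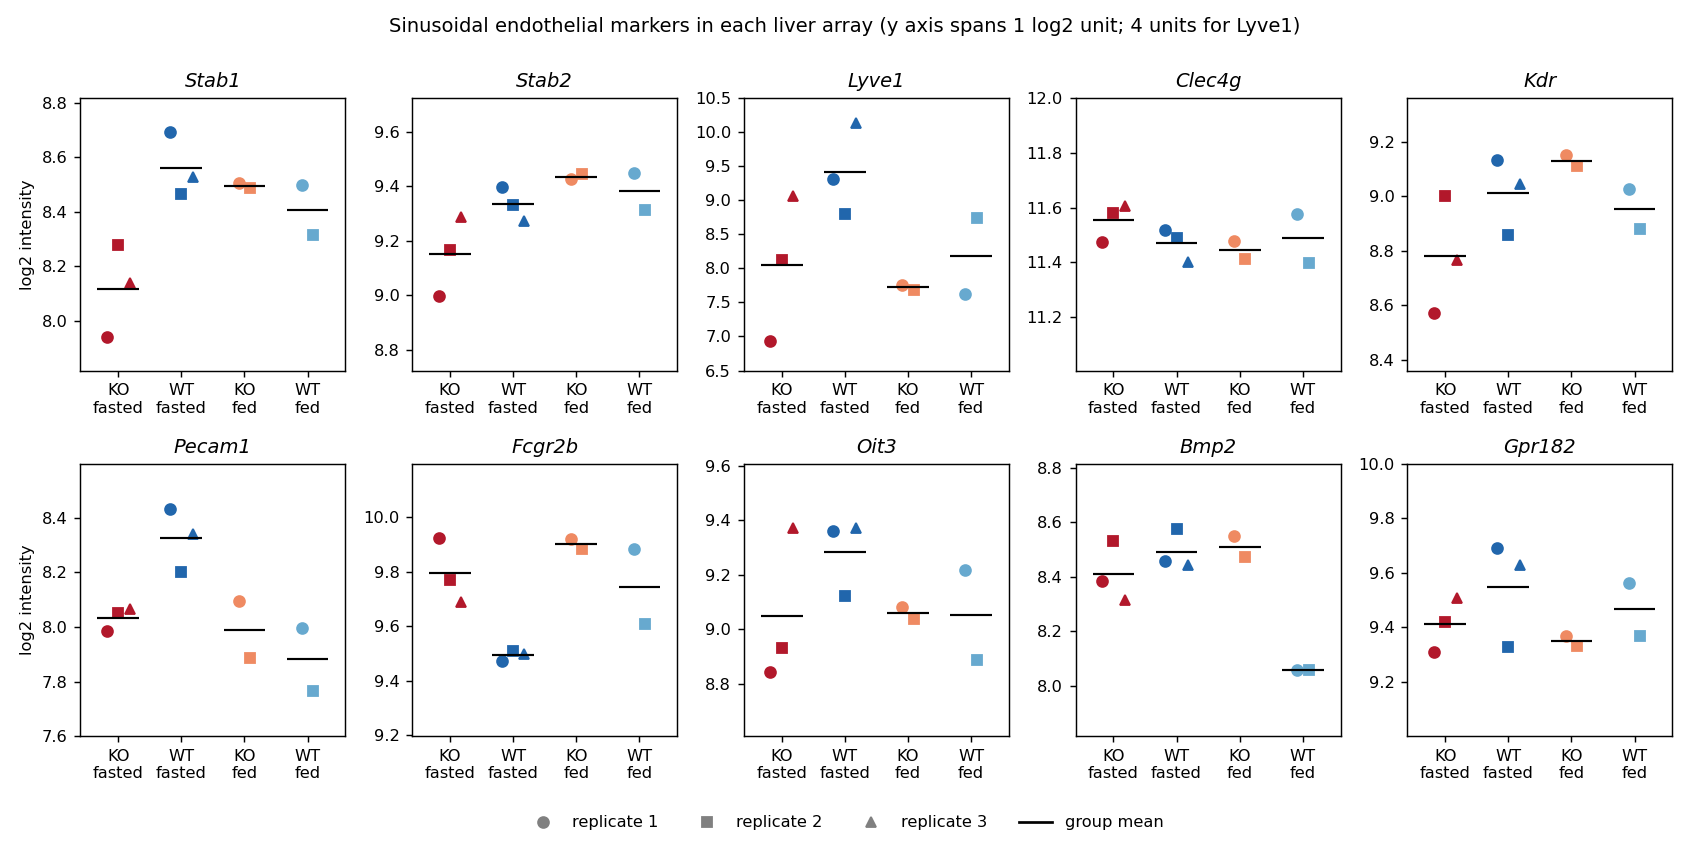
Log2 intensity of each marker on every array (points; the symbol gives the replicate number) with group means (bars), for fasted knockout (n = 3), fasted wild type (n = 3), fed knockout (n = 2) and fed wild type (n = 2). Each y axis spans 1 log2 unit, except that of Lyve1, which spans 4; Bmp2 is low in both fed wild type arrays and Stab1 is low in all 3 fasted knockout arrays.

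Sequences before the transcription start are shown for the pair of stabilin genes, of which 1 was called and 1 was not, and for Kdr and Fcgr2b, the markers whose sequence held a match to the motif of ETS factors, the family of the endothelial regulator ERG. They are the 250 bases before the start from RefSeq (GRCm38.p6, a C57BL/6J genome, not the BALB/cByJ strain studied), printed 5′ to 3′ on the strand of the gene. Capitals mark the ETS letters GGAAGT on either strand.
Stab1 (chr14:31168642-31168891, minus strand): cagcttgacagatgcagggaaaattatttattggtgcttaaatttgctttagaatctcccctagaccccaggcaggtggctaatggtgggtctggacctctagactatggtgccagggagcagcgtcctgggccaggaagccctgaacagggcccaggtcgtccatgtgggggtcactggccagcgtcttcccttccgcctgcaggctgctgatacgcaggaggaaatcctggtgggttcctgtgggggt
Stab2 (chr10:87007943-87008192, minus strand): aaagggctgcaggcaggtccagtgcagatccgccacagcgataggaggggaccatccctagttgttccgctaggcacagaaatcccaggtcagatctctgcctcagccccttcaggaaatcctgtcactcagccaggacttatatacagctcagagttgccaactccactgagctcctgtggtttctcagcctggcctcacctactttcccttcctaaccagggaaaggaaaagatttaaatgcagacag
Kdr (chr5:75978456-75978705, minus strand): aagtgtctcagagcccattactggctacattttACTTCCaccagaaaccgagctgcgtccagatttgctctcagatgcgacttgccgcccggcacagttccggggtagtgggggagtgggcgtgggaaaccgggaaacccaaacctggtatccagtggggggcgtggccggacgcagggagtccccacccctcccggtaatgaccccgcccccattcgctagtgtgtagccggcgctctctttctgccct
Fcgr2b (chr1:170976072-170976321, minus strand): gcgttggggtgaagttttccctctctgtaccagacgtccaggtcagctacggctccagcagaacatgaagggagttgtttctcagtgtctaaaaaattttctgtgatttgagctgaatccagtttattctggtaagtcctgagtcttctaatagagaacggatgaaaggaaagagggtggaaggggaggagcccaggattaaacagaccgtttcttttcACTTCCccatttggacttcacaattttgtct
Of the 10 markers, 5 were matched in the promoter table used. The letters GGAAGT stood in 2 of these 5, and in 19.7% of all 32851 promoter windows of the same length. The GATA letters AGATAA (9.99% of all windows), the forkhead letters TGTTTAC (3.17%) and the E-box CACGTG of the clock factors (6.02%) stood in 0 of the 5. Both strands were searched, and the capitals hold no overlapping motifs. These matches describe the letters and not binding.

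Stab1 encodes stabilin-1, a scavenger receptor of sinusoidal endothelium and some macrophages that takes up modified lipoproteins and matrix fragments. Its log2 intensity was 7.94, 8.28 and 8.14 in fasted knockout, against 8.69, 8.46 and 8.53 in fasted wild type. It was 8.50 and 8.49 in fed knockout, against 8.50 and 8.32 in fed wild type. The 3 fasted knockout arrays were the lowest of all 10, and the other groups overlapped. In the fasted state the knockout was lower by a log2 difference of -0.44 (SE 0.11, 95% confidence interval -0.70 to -0.19, limma adjusted p = 0.0381), or 0.736 times the wild type level. Without fasted knockout replicates 1 and 2 the difference was -0.42, so the size held. The call was lost on omission of fasted knockout replicate 1 (-0.35, limma adjusted p = 0.129) or 3 (-0.45, 0.0641). It was also lost on omission of any 1 fasted wild type array (0.0621 to 0.111) or either fed knockout array (0.0584). Set against fed knockout, fasted knockout differed by -0.38 (SE 0.13), without overlap, but this was not called (adjusted p = 0.157), and by -0.36 (adjusted p = 0.246) with replicate 3 alone.

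Stab2 encodes stabilin-2, the main endocytic receptor for hyaluronan in these cells. Its values were 9.0, 9.17 and 9.29 in fasted knockout, against 9.40, 9.33 and 9.27 in fasted wild type. It was at 9.43 and 9.44 in fed knockout, against 9.45 and 9.31 in fed wild type. Fasted knockout replicate 1 was the lowest array, and the fasted groups overlapped. The difference between fasted groups was -0.18 (SE 0.10, 95% confidence interval -0.41 to 0.04, adjusted p = 0.263), and it was -0.05 without fasted knockout replicates 1 and 2.

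Lyve1 encodes a hyaluronan receptor shared by lymphatic and sinusoidal endothelium. Its log2 intensity was 6.94, 8.13 and 9.06 in fasted knockout replicates 1, 2 and 3, against 9.31, 8.79 and 10.13 in fasted wild type. It was 7.76 and 7.68 in fed knockout, against 7.63 and 8.73 in fed wild type. All 3 fasted wild type arrays exceeded both fed wild type arrays, while the fasted groups overlapped through fasted knockout replicate 3. The spread within groups was wide, with a pooled SD of 0.80, larger than that of 99.5% of the genes tested. For the other 9 markers this SD lay between 0.08 and 0.21, beside a median of 0.17 over all genes. The fast in wild type gave a log2 difference of 1.23 (SE 0.58, 95% confidence interval -0.07 to 2.53, limma adjusted p = 0.161). Fasted knockout against fasted wild type gave -1.37 (SE 0.52, 95% confidence interval -2.53 to -0.21, adjusted p = 0.116). Without fasted knockout replicates 1 and 2 the second difference was -0.35 (adjusted p = 0.782), and without replicate 3 it was -1.88 (adjusted p = 0.0367), so single arrays decide it.

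Lyve1 divided the arrays by the sign of Arntl minus Dbp, with a narrow gap. In the 4 arrays where Arntl exceeded Dbp, which are fasted wild type and fasted knockout replicate 3, its values were 8.79 to 10.13, and in the 6 others 6.94 to 8.73. Within either side it did not keep the order of that difference. It was 7.63 at -2.0 and 8.73 at -2.48 in fed wild type. In fasted wild type replicates 1 and 3 it was 9.31 at 3.22 and 10.13 at 2.52. How many of all genes divide the arrays in this way was not counted. With the difference of Arntl and Dbp as a covariate, the response of Lyve1 to the fast in wild type was 0.34 (limma adjusted p = 0.760). The slope of this covariate comes from differences within groups. These are widest in fasted knockout, at -5.45 and -5.27 against 2.87 in replicate 3, so the slope rests mainly on that group. Fasting and clock state coincide in wild type and cannot be told apart there.

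**Figure D2:**
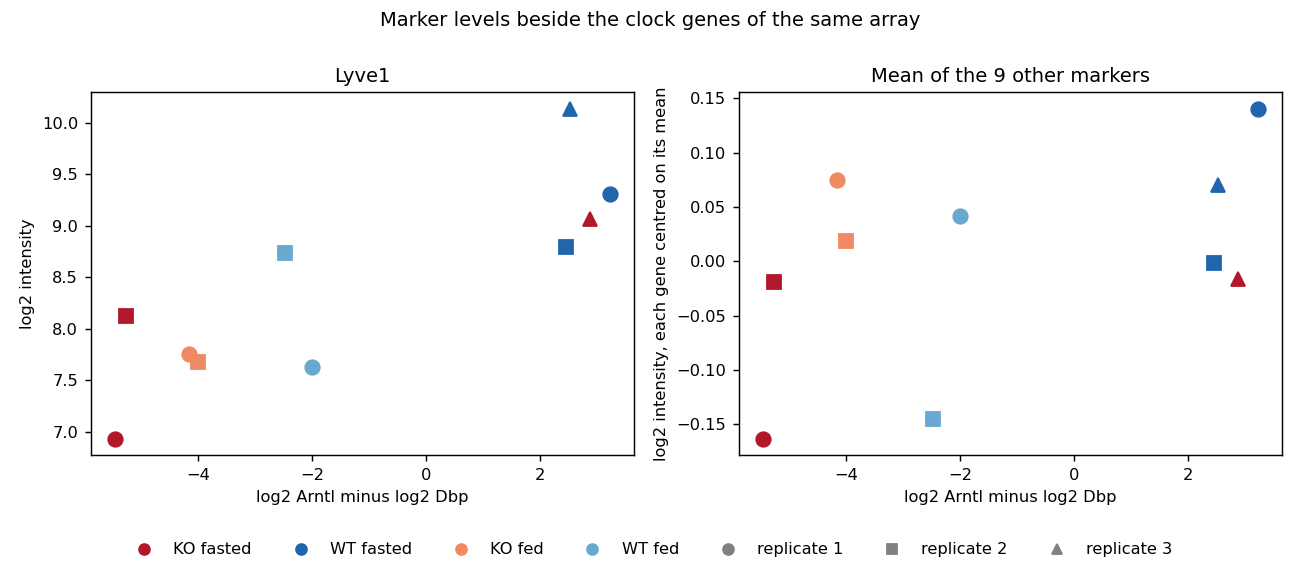
Lyve1 log2 intensity (left) and the mean of the 9 other markers, each centred on its own mean (right), against log2 Arntl minus log2 Dbp of the same array; colours give the group and symbols the replicate number. Lyve1 lies at 8.79 or above in the 4 arrays on the right of the axis and at 8.73 or below in the rest, while the mean of the 9 others spans -0.16 to 0.14 with both sides overlapping.

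Clec4g encodes LSECtin, a C-type lectin that binds glycans on pathogens and T cells. It was the steadiest marker. Its values were 11.47, 11.58 and 11.61 in fasted knockout, against 11.52, 11.49 and 11.40 in fasted wild type. It stood at 11.48 and 11.41 in fed knockout, against 11.58 and 11.40 in fed wild type. All 4 groups overlapped. The difference between fasted groups was 0.08 with a 95% confidence interval of -0.12 to 0.29 (0.14 without fasted knockout replicates 1 and 2), and that of the fast in wild type was -0.02 (-0.25 to 0.21).

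Fcgr2b encodes the inhibitory Fc receptor through which these cells clear small immune complexes; macrophages and B cells express it too. Its values were 9.92, 9.77 and 9.69 in fasted knockout, against 9.47, 9.51 and 9.50 in fasted wild type. It was 9.92 and 9.89 in fed knockout, against 9.88 and 9.61 in fed wild type. Fasted wild type was the lowest group and overlapped with no other. Fasted knockout exceeded fasted wild type by 0.30 (SE 0.10, 95% confidence interval 0.07 to 0.53), with an adjusted p of 0.0915, and by 0.20 (adjusted p = 0.509) without replicates 1 and 2. Of 21 alternatives 1 called it, trend and robust moderation (limma adjusted p = 0.0472). That alternative called the most genes in all, 1968 beside 1549.

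Kdr encodes VEGF receptor 2, the main signalling receptor for VEGF-A in endothelium. Its values were 8.57, 9.0 and 8.77 in fasted knockout, against 9.13, 8.86 and 9.05 in fasted wild type. It was 9.15 and 9.11 in fed knockout, against 9.03 and 8.88 in fed wild type. Fasted knockout lay below fed knockout without overlap, by -0.35 (SE 0.14, adjusted p = 0.217), and by -0.36 (adjusted p = 0.250) with replicate 3 alone. The fasted groups overlapped, with a difference of -0.23 (SE 0.13, adjusted p = 0.262), or -0.25 (adjusted p = 0.428) with replicate 3 alone.

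Pecam1 encodes CD31, an adhesion molecule of endothelial junctions in all vessels, also found on leukocytes and platelets. Its values were 7.99, 8.05 and 8.07 in fasted knockout, against 8.43, 8.20 and 8.34 in fasted wild type. It was 8.09 and 7.89 in fed knockout, against 8.0 and 7.76 in fed wild type. Fasted wild type was above every array of the 3 other groups. The fast raised it in wild type by 0.45 (SE 0.12, 95% confidence interval 0.18 to 0.72, limma adjusted p = 0.0271), a fold of 1.36. In knockout the same comparison gave 0.04 (SE 0.12, adjusted p = 0.877). The difference between these responses was -0.40 (SE 0.17, interaction adjusted p = 0.229), so it was not called. With fasted knockout replicate 3 alone, these values were 0.08 (adjusted p = 0.848) and -0.37 (adjusted p = 0.402). Fasted knockout was below fasted wild type without overlap (-0.29, SE 0.11, adjusted p = 0.109), with a difference of -0.26 (adjusted p = 0.441) with replicate 3 alone. The wild type call was lost on omission of fed wild type replicate 2 (0.33, adjusted p = 0.171) or fasted wild type replicate 1 (0.39, 0.0757) or 3 (0.44, 0.0702). With the clock covariate the difference was 0.40 (limma adjusted p = 0.145). The slope of that covariate rests mainly on fasted knockout, so it cannot separate the fast from clock state in wild type.

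Bmp2 encodes a bone morphogenetic protein that endothelial cells release and that acts on hepatocyte receptors to raise hepcidin. Its values were 8.38, 8.53 and 8.32 in fasted knockout, against 8.46, 8.57 and 8.44 in fasted wild type. It was 8.55 and 8.47 in fed knockout, against 8.06 and 8.06 in fed wild type. Both fed wild type arrays lay below all 8 others, and the 3 remaining groups overlapped. The fast raised Bmp2 in wild type by 0.44 (SE 0.10, 95% confidence interval 0.20 to 0.67, limma adjusted p = 0.0168), a fold of 1.35. In knockout it gave -0.10 (SE 0.10, 95% confidence interval -0.33 to 0.13, adjusted p = 0.652). The difference between the responses was -0.53 (SE 0.15), with an interaction adjusted p of 0.0959. Fed knockout exceeded fed wild type by 0.45 (SE 0.11, 95% confidence interval 0.20 to 0.71), which was not called over all genes (adjusted p = 0.262). With fasted knockout replicate 3 alone, the fast in knockout gave -0.19 (adjusted p = 0.457) and the interaction -0.63 (adjusted p = 0.128). Apart from the fast in knockout, these differences use fed wild type, a group of 2 arrays whose Bmp2 values differed by less than 0.01. That wild type call ended when fed wild type replicate 1 (adjusted p = 0.0879) or 2 (0.0720) was left out, and likewise fasted wild type replicate 2 (0.0554), at differences of 0.39 to 0.44. With the clock covariate the wild type difference was 0.52 (limma adjusted p = 0.0434). Here too the slope rests mainly on fasted knockout, and the fast and clock state in wild type cannot be separated by it.

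Oit3 encodes a secreted protein with a zona pellucida domain whose expression is largely limited to the liver. Its values were 8.84, 8.93 and 9.37 in fasted knockout, against 9.36, 9.12 and 9.37 in fasted wild type. It was 9.08 and 9.04 in fed knockout, against 9.22 and 8.89 in fed wild type. All groups overlapped except the fed knockout with fasted wild type. The fasted groups differed by -0.24 (SE 0.15, adjusted p = 0.348), and by 0.09 without fasted knockout replicates 1 and 2. Gpr182 encodes a receptor of the chemokine receptor class that is concentrated in sinusoidal and lymphatic endothelium. Its values were 9.31, 9.42 and 9.51 in fasted knockout, against 9.69, 9.33 and 9.63 in fasted wild type. It was 9.37 and 9.33 in fed knockout, against 9.56 and 9.37 in fed wild type. No comparison of Oit3 or Gpr182 was called, and the difference of Gpr182 between fasted groups was -0.14 (95% confidence interval -0.40 to 0.13), and -0.04 without fasted knockout replicates 1 and 2.

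**Figure D3:**
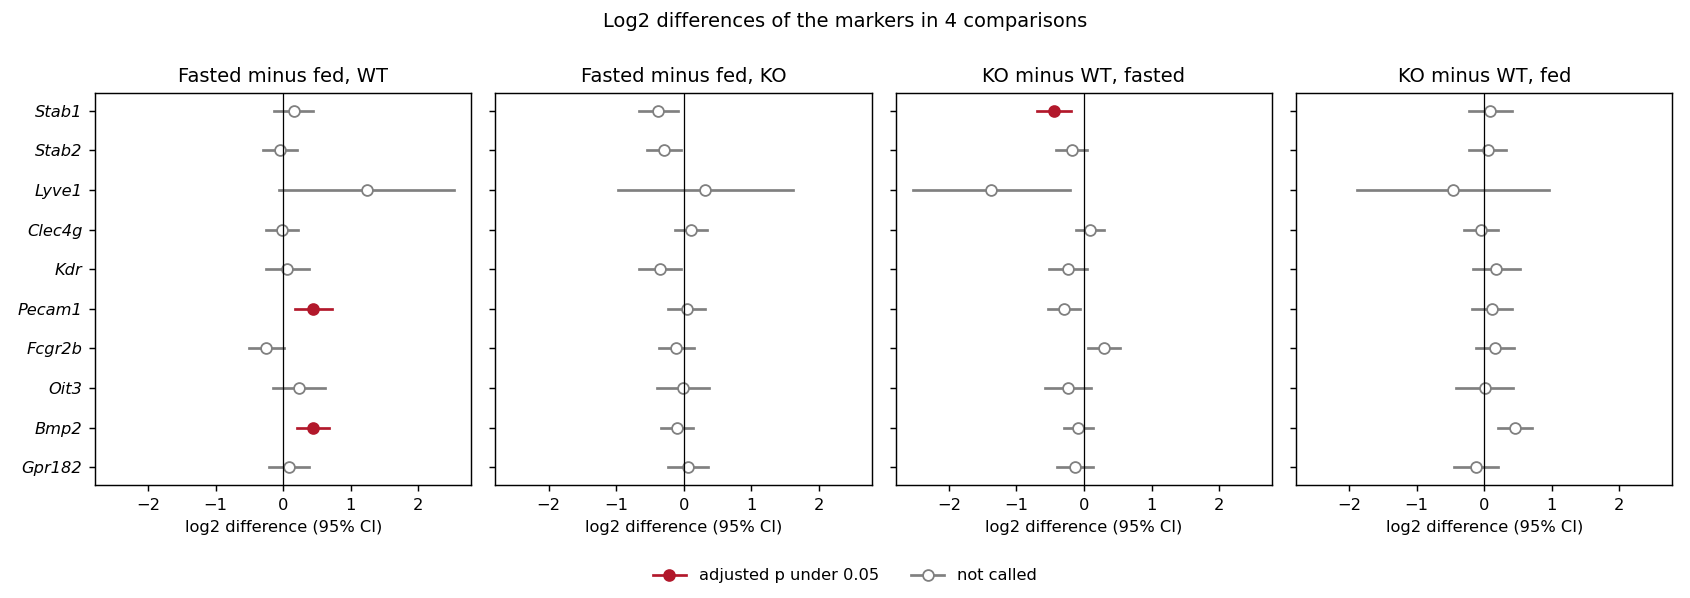
Log2 differences of the 10 markers (points) with 95% confidence intervals of the limma fit (lines) for fasted minus fed in wild type and in knockout, and knockout minus wild type in the fasted and in the fed state. Filled points have an adjusted p under 0.05: Pecam1 (0.45) and Bmp2 (0.44) in the first panel and Stab1 (-0.44) in the third.

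Read over all markers, the fast in wild type called 2 of 10 higher and 0 lower, where 21.4% of all genes were called, 8.23% higher and 13.2% lower. The groups did not overlap for 4 of 10 markers (Lyve1, Pecam1 and Bmp2 higher, Fcgr2b lower), a state found in 52.7% of all genes. The median difference of the markers was 0.12, beside -0.02 for all genes. In knockout the fast called 0 of 10, where 1.68% of all genes were called. Stab1, Stab2 and Kdr had an unadjusted p under 0.05 there, 3 of 10, as did 19.2% of all genes. The same 3 were lower in fasted knockout than in fed knockout without overlap, where 36.8% of all genes did not overlap in 1 direction or the other. The median over all 10 markers was -0.05, and -0.04 without fasted knockout replicates 1 and 2, beside 0.01 for all genes.

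Knockout against wild type called 1 of 10 markers lower in the fasted state and 0 higher, where 11.1% of all genes were called, 4.43% lower and 6.68% higher. The groups did not overlap for 3 markers (Fcgr2b higher, Stab1 and Pecam1 lower), as for 33% of all genes. Of the 10 differences 8 were below 0, with a median of -0.21, beside 0.01 for all genes. Without fasted knockout replicates 1 and 2 the median was -0.11, with 7 below 0. In the fed state 0 of 10 were called, where 0.0861% of all genes were, and the median was 0.07. Bmp2 alone had an unadjusted p under 0.05 there, beside 8.63% of all genes. The groups did not overlap for 4 markers (Kdr, Fcgr2b and Bmp2 higher, Gpr182 lower), as for 39.9% of all genes. The interaction of genotype and fasting called 0 of 10 markers, where 2.11% of all genes were called. Its median over the markers was -0.32, with 8 below 0, beside 0.04 for all genes, and 3 had an unadjusted p under 0.05, as did 20.1% of all genes. Without fasted knockout replicates 1 and 2 the median was -0.03, with 5 below 0. Averaged over genotype the fast called 0 of 10, where 21.6% of all genes were called, and averaged over feeding the genotype called 0 of 10, where 0.172% were. In each, 2 markers had an unadjusted p under 0.05, beside 35.6% of all genes for the fast and 17.2% for the genotype. These comparisons share arrays, so their medians are not independent.

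Other endothelial genes were taken from a list of vascular identity genes, of which 23 of 26 passed the filter. In fasted knockout against fasted wild type 2 were lower and 0 higher, beside 4.43% and 6.68% of all genes, with a median of -0.14. They were Tie1, an orphan receptor of the angiopoietin system (-0.41, SE 0.10, adjusted p = 0.0373), and Mmrn2, a matrix protein of the endothelial surface (-0.42, SE 0.11, adjusted p = 0.0425). In wild type, where 8.23% of all genes were called higher and 13.2% lower, the fast raised 1 and lowered 0. It was Esam, a junction adhesion molecule, which averaged 7.57 ± 0.17 (SD, n = 3) in fasted wild type, against 7.0 ± 0.12 in fed wild type (SD, n = 2) (0.57, SE 0.13, adjusted p = 0.0125). Where 1.68% and 0.0861% of all genes were called, the fast in knockout and the comparison of fed groups called 0 of 23. Of these Erg, the endothelial ETS factor, had the smallest p in the fasting comparison in knockout (-0.39, SE 0.13, adjusted p = 0.144, and -0.43 with replicate 3 alone).

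The VEGF and angiopoietin list had 14 of 16 entries tested, and includes Tie1 and Tek of the identity list. Fasted knockout was lower than fasted wild type in 2 and higher in 0, beside 4.43% and 6.68% of all genes, with a median of -0.17. The second gene beside Tie1 was Flt1, VEGF receptor 1, which binds VEGF-A as a decoy. Its log2 level was 6.68 ± 0.24 (SD, n = 3) in fasted knockout and 7.24 ± 0.09 (SD, n = 3) in fasted wild type, a difference of -0.56 (SE 0.12, adjusted p = 0.0246). Without fasted knockout replicates 1 and 2 the difference was -0.61 for Flt1, -0.38 for Tie1 and -0.36 for Mmrn2. The other comparisons between single groups called 0 of 14, the fast in wild type included, where 21.4% of all genes were called. Angpt1, the ligand of the TIE2 receptor, had the smallest p in the wild type fast (0.37, adjusted p = 0.107). Its fed wild type values, 4.93 and 5.22, lay below the array medians.

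Of the angiocrine ligands 9 of 12 passed the filter. The fast in wild type raised 2 and lowered 1, where 8.23% of all genes were called higher and 13.2% lower. Wnt9b, a Wnt ligand of central vein endothelium, averaged 7.83 ± 0.27 (SD, n = 3) in fasted wild type, against 6.55 ± 0.14 in fed wild type (SD, n = 2) (1.28, SE 0.22, adjusted p = 0.00426). Hgf, the hepatocyte growth factor, rose by 0.44 (SE 0.14, adjusted p = 0.0480), and the chemokine gene Cxcl12 fell by 0.60 (log2 difference -0.60, SE 0.11, adjusted p = 0.00460). Cxcl12 was higher in fasted knockout than in fasted wild type (0.38, SE 0.10, limma adjusted p = 0.0341). Without replicates 1 and 2 this difference was 0.26.

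The BMP and iron list, the pathway of Bmp2, had 21 of 23 entries tested. The fast in wild type raised 2 and lowered 2, beside 8.23% and 13.2% of all genes, with a median of -0.03. The 4 of 21 called in either direction were a share near the 21.4% of all genes. Id1, a target gene of BMP signalling, averaged 6.40 ± 0.33 (SD, n = 3) in fasted wild type, against 5.10 ± 0.15 in fed wild type (SD, n = 2) (1.31, SE 0.20, adjusted p = 0.00242). Its values on both fed wild type arrays lay below the array medians, as did that of fed knockout replicate 2. The differences of Id1 with the fast therefore start from dim values. The type I receptor gene Bmpr1a rose by 0.51 (SE 0.11, adjusted p = 0.00963) and the type I receptor gene Acvr1 fell (-0.55, SE 0.13, adjusted p = 0.0179). Tmprss6, the protease that restrains hepcidin, fell as well (-0.33, SE 0.10, adjusted p = 0.0464). The remaining comparisons between single groups called 0 of 21, where 0.0861% to 11.1% of all genes were called. In knockout the fast gave Id1 a difference of 0.90 (SE 0.20, adjusted p = 0.0574), and 1.09 (adjusted p = 0.0954) with replicate 3 alone.

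Among 14 genes of scavenging and endocytosis the fast in wild type lowered 1, the scavenger receptor gene Scarf1 (-0.61, SE 0.13, adjusted p = 0.00938). For that fast 13.2% of all genes were called lower and 8.23% higher. Knockout against wild type called 0 of 14 in either feeding state, beside 11.1% of all genes when fasted and 0.0861% when fed. Of 5 genes of Fc receptors and their signalling chain, the fast in wild type raised 1, the low affinity receptor gene Fcgr3 (0.56, SE 0.17, adjusted p = 0.0433). In fasted knockout against fasted wild type 0 of 5 were called, beside 11.1% of all genes. The high affinity receptor gene Fcgr1 had the smallest p there (0.82, SE 0.23, limma adjusted p = 0.0505, and 0.68 with replicate 3 alone). Of the 5 genes, 3 lay above the array median on every array. Fcgr1 was 5.51, 4.85 and 5.43 in fasted wild type and Fcgr3 5.78 and 5.54 in fed wild type. Array medians were 5.44 to 5.57, so both differences start from dim values.

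Of the markers of other liver cells, those of Kupffer cells had calls in fasted knockout against fasted wild type. Those of stellate cells, hepatocytes, cholangiocytes and lymphocytes had 0, of 11, 10, 4 and 4 tested. As 11.1% of all genes were called there, 0 in lists this short is near the share of all genes. All 12 Kupffer cell markers tested lay above the array median on every array. In fasted knockout against fasted wild type 4 of 12 were higher and 0 lower, beside 6.68% and 4.43% of all genes. The median was 0.34, and 0.34 without fasted knockout replicates 1 and 2. Adgre1, a macrophage surface receptor, was higher by 0.54 (SE 0.10, adjusted p = 0.0118), Cd5l by 0.65 (SE 0.17, adjusted p = 0.0407) and Csf1r, the receptor of macrophage growth factor, by 0.38 (SE 0.09, adjusted p = 0.0335). The summed intensity of the Kupffer markers was 5304 to 6038 in fasted knockout, against 4425 to 4645 in fasted wild type, without overlap. It was 4826 to 5201 in fed knockout, against 4651 to 5780 in fed wild type. Between fasted groups the sum of the 10 sinusoidal markers was 6757 to 7796, against 7381 to 8193, with overlap. Bright probe sets weigh most in such sums, and Clec4g gave 2845 to 3116 in fasted knockout, against 2702 to 2934. The sums of stellate (7753 to 8045, against 8053 to 8740) and cholangiocyte markers (241 to 263, against 280 to 308) were lower in fasted knockout without overlap. The part of macrophages in the levels of Fcgr2b and Stab1, which they also express, was not tested.

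In wild type, where 13.2% of all genes were called lower and 8.23% higher, the fast lowered 2 of 12 Kupffer markers, a share near that of all genes. They were Adgre1 (-0.57, adjusted p = 0.00640) and Csf1r (-0.35, adjusted p = 0.0432). Of 11 stellate cell markers tested, it raised 1 and lowered 2, among them Lrat, the retinol esterifying enzyme (-1.04, SE 0.20, adjusted p = 0.00706), and Hand2 (0.63, SE 0.11, adjusted p = 0.00482). Of 10 hepatocyte markers it lowered 1, Ass1, an enzyme of the urea cycle (-1.41, SE 0.37, adjusted p = 0.0234). Their summed intensity was 42394 to 45353 in fasted knockout, against 44181 to 45381 in fasted wild type, and 43923 to 44878 in fed knockout, against 43891 to 44272 in fed wild type. Of the markers on the array, 1 of 4 of cholangiocytes and 1 of 8 of lymphocytes lay above the median on every array. Cholangiocyte and lymphocyte markers, with 4 and 4 tested, had 0 called in comparisons between single groups, where 0.0861% to 21.4% of all genes were called. Knockout against wild type in the fasted state called 0 of 11 stellate and 0 of 10 hepatocyte markers, beside 11.1% of all genes.

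**Figure D4:**
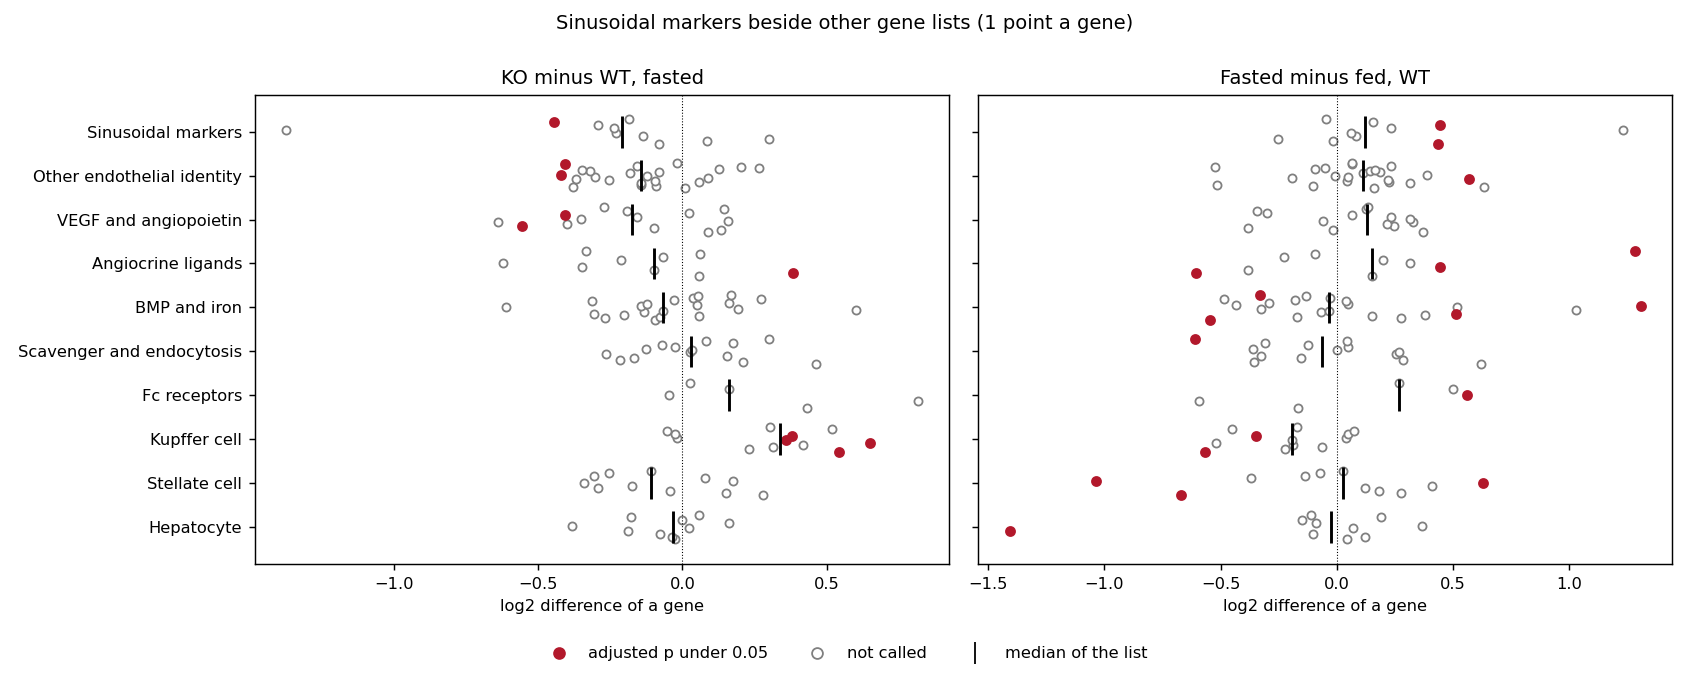
Log2 differences of single genes (points) in 10 lists, for knockout minus wild type in the fasted state (left) and fasted minus fed in wild type (right); filled points have an adjusted p under 0.05 and bars are list medians. On the left the medians of the sinusoidal markers (-0.21), the VEGF list (-0.17) and other endothelial identity (-0.14) lie below 0. So do those of the stellate (-0.11), angiocrine (-0.10), BMP and iron (-0.07) and hepatocyte (-0.03) lists. Those of the Kupffer (0.34), Fc receptor (0.16) and scavenger (0.03) lists lie above it.

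The markers did not vary as 1 unit across the arrays. Each was centred on its own mean and averaged over the 10 markers, and Pearson r with this profile over the 10 arrays was 0.86 for Lyve1, 0.86 for Oit3, 0.78 for Pecam1, 0.77 for Gpr182 and 0.74 for Stab1. It was 0.01 for Clec4g and -0.72 for Fcgr2b. Each marker is part of the profile, the arrays share the 4 groups and the clock division, and Lyve1 with its wide range weighs most, so these values only describe the arrays. Against the profile without Lyve1, r was 0.84 for Stab1, 0.81 for Kdr, 0.42 for Lyve1, 0.17 for Clec4g and -0.27 for Fcgr2b. Of all other genes the 5 most alike over the 10 arrays were Blcap (r = 0.97), Tmem11 (0.97), Helz2 (0.96), Elovl5 (0.95) and Pcsk5 (0.95). Blcap, for example, was 5.79, 6.36 and 6.63 in fasted knockout, against 7.05, 6.63 and 6.90 in fasted wild type. Against the profile without Lyve1 these 5 had r between 0.71 and 0.85.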

How the data were processed

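Liver RNA was hybridised to Affymetrix Mouse Gene 2.1 ST arrays, 10 in all, 2 for each fed group and 3 for each fasted group. The authors deposited 1 normalized intensity per probe set and array, not log-transformed, made with RMA in Affymetrix Expression Console per the submitters' processing notes; no version or build is stated there. Array medians were 43.5 to 47.5. Genes were named through the platform table: of 41345 probe sets 23521 had 1 symbol, 1814 several and 16010 none. The log2 of each intensity was taken without further normalization. A probe set was kept when above the array median (50th percentile) on at least 2 arrays, and the brightest stood for its gene, which left 13942 genes. A model of 4 group means was fitted to all arrays (limma 3.58.1, R 4.3.3), tested first on simulated data. The number of arrays limits the precision. Named genes were the 10 markers, Pml, Arntl, Dbp, in each list up to 3 called genes with the smallest adjusted p per contrast (otherwise the one with the smallest p), and the 5 genes most like the mean marker profile; Tmprss6 was named beside these after its value was seen. The members and lists were chosen with earlier results of these data known. Alternatives were other scalings, filters, summaries, moderation and weights, a replicate block, the comparison's groups alone, a clock covariate (Arntl minus Dbp) and omission of arrays. Replicate numbers were not taken as pairs, since nothing says that they are. Over 13 pairs with the same number, deviations from group means correlated between -0.17 and 0.11, with 1 pair over 0.1. In a group of 2 arrays these deviations are equal and opposite by construction. The 13 pairs are therefore not independent and cannot decide whether the numbers pair the samples.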

Additional observations from a re-analysis of the deposited data

How the results depend on the processing

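Over 21 alternatives no called difference of a marker changed direction. Of 1440 values of single markers under an alternative, 1374 kept call and size, 23 lost a call, 6 gained one and 37 without a call moved by more than the spread between replicates. The fast in wild type called 1 marker in place of 2 with each array centred, with no filter, with only the groups of the comparison and with the clock covariate. Leaving out 1 array gave counts of members between 0 and 2. Knockout against wild type in the fasted state called 0 members in place of 1 with each array centred, with no filter, with only the compared groups and with the clock covariate. It called 2 with trend and robust moderation, the alternative that called the most genes in all, 1968 beside 1549. Leaving out 1 array gave 0 or 1. The fast averaged over genotype called 1 in place of 0 with repeated quantile normalization (Pecam1, 0.28), with the stricter filter at the 70th percentile (Pecam1, 0.25) and without both fasted knockout arrays (Lyve1, 1.29). The other 4 contrasts called 0 members under every alternative; unadjusted p-values under 0.05 are counted for them in the text, and 2 markers had one for genotype averaged over feeding. With the replicate block the fast in wild type called 2 members and the fasted genotype comparison 1, but a different one: Lyve1 was called (-1.37, adjusted p = 0.0434) and Stab1 was not (-0.44, adjusted p = 0.0705). The numbers are not known to pair the samples. Of 10 arrays, 4 correlated best with an array of their own number, a check that cannot decide pairing. Counts over all genes moved widely: from 1549 to 6 for the fasted genotype comparison without fasted knockout replicates 1 and 2, from 294 to 0 for the interaction with the same omission, and from 234 to 0 for the fast in knockout and 12 to 0 for the fed genotype comparison with the replicate block. For the fast in wild type the lowest count was 1283 of 2990, with the clock covariate. The causes were not tested. Groups of 2 and 3 arrays limit how small a difference could be called; for Lyve1 the wide spread within groups does so most.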
